A study of Homo sapiens with 4 samples.

Results

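The genes described here are the nuclear genes for respiratory complex I, taken as every row of the deposited expression table whose symbol is NDUF followed by A, B, C, S, V, AB or AF and a number. Of 26830 genes in the table, 45 met this rule. They were 38 genes named as subunits and 7 named as assembly factors (NDUFAF1 to NDUFAF7). NDUFA4 is among the 38 by its name, although its protein is now assigned to complex IV, and its values are given apart.

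Complex I, NADH:ubiquinone oxidoreductase, is the entry point of the mitochondrial respiratory chain. It takes electrons from NADH in an arm that reaches into the mitochondrial matrix, passes them over iron-sulfur clusters to ubiquinone, and pumps protons through an arm in the inner membrane. A set of core subunits carries out the chemistry, some encoded in the nucleus and some in mitochondrial DNA, and accessory subunits surround them. Assembly factors help to build the complex and are not part of the finished enzyme. Their mRNAs are made in the nucleus and translated in the cytosol, where RNA-binding proteins such as QKI can meet them.

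The study asked which transcripts are bound by QKI7, one of the proteins made from the QKI gene, in U2OS, a human osteosarcoma cell line. RNA recovered with an antibody against the Flag tag (Flag-RIP, n = 2 libraries) was set against input RNA of the same kind of lysate, for which no antibody was used (n = 2 libraries). Cells of both groups carried a lentiviral construct for Flag-tagged QKI7, were selected for GFP, had no special treatment and were cross-linked with ultraviolet light, so the inputs also hold the forced expression of QKI7. Nothing in the labels says that replicates 1 and 2 came from separate cultures, and p-values therefore speak only for the spread among these 4 libraries, which may be technical. A precipitation without the tagged protein was not analysed here, so recovery by QKI7 and recovery by the beads cannot be told apart.

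Values are in TPM, a length-normalised share of each library that keeps no read depth, so no counting interval is given. Flag-RIP libraries had 11970 and 12098 genes at 1 TPM or more, against 6117 and 7803 in the inputs, and the ERCC spike-ins, synthetic RNAs, took 18.9% and 25.6% of the TPM in Flag-RIP, against 2.78% and 3.89% in input. Of the bone lineage genes, COL1A1, SPARC and RUNX2 were present in all 4 libraries (COL1A1 at 113 and 116 TPM in Flag-RIP, against 53.8 and 83.7 TPM in input), while SP7, ALPL and SPP1 stayed under 1 TPM. The blood marker PTPRC was at most 0.01 TPM and the liver gene ALB was listed at 0. The epithelial gene EPCAM had 0.58 and 0.42 TPM in Flag-RIP, against 0.19 and 0.18 TPM in input. The endothelial gene PECAM1 had 0.26 and 0.35 TPM in Flag-RIP, against 0.03 and 0.04 TPM in input. Like SP7, ALPL and SPP1, both stayed under 1 TPM.

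Genes with a mean of at least 1 TPM over the 4 libraries were tested (10415 genes), with limma on log2(TPM + 1), two-sided, and Benjamini-Hochberg adjustment over all of them at a threshold of 0.05. Since the typical gene had more TPM in Flag-RIP (a median ratio of mean TPM of 3.32, and library medians 1.32 log2 units apart), the test was made on the deposited values and again with all libraries moved onto 1 median. The second is called the centred change. A gene lower on it rose less than the typical gene on the log2(TPM + 1) scale, not necessarily less than in input. For genes at low TPM this need not hold for the ratio. Genes with a mean of 1 to 2 TPM had a median centred change of -0.29 and a median ratio of 3.85.

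Most transcripts of complex I were recovered less than the typical gene, and no tested member was called higher than it after centring. Of the 37 members tested, 30 were lower and 0 higher after centring, against 24.4% of all tested genes lower and 16.4% higher (limma adjusted p under 0.05; also 0 higher at an unadjusted p under 0.05). The lower calls comprised 29 of 34 tested subunits and 1 of 3 tested assembly factors. The median centred change was -0.88 for subunits and -0.34 for assembly factors, against -0.11 for all tested genes. After centring, both Flag-RIP libraries lay below both inputs for 31 of the 37 members and above them for 0, against 47.3% and 29.4% of all tested genes. In plain TPM the median ratio of Flag-RIP to input over tested subunits was 1.42, against 3.32 over all tested genes. Among the 30 members called lower the ratio was at most 2.28 (NDUFV3). Genes could pass the filter through their RIP values alone, which can raise the 3.32. Of all tested genes 44 had inputs at 0, and 2 of the 37 members had a mean input under 1 TPM. Without input replicate 1 only 13 of the 34 subunits remained lower, all of them among the 29, while 322 genes in all were then lower against 2545 with all libraries.

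In the deposited values 14 of the 37 members were higher in Flag-RIP and 0 lower (limma adjusted p under 0.05; 0 lower at an unadjusted p under 0.05), against 92.3% of all tested genes higher and 0.317% lower. The 14 were 11 subunits and 3 assembly factors, and 7 of the 14 were also called lower after centring, which means a rise smaller than that of the typical gene on this scale. Both Flag-RIP libraries lay above both inputs for 26 of the 37 members, against 96.7% of all tested genes, and below both inputs for 4, against 0.845%. The 4 were NDUFS8, NDUFB7, NDUFB11 and NDUFA4. The ratio of mean TPM was under 1 for 7 members, against 1.51% of tested genes. Fewer subunits were called higher in the deposited values when either Flag-RIP library was left out. The count over all tested genes in those fits is not given here, so the drop is not particular to subunits. On other scalings 33 of the 34 subunits were lower and 0 higher (libraries scaled to the spike-ins), against 60.9% of all tested genes lower and 3.12% higher. With the 20 most abundant rows left out 22 were lower and 1 higher, against 7.02% of all tested genes lower and 36% higher.

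**Figure D1:**
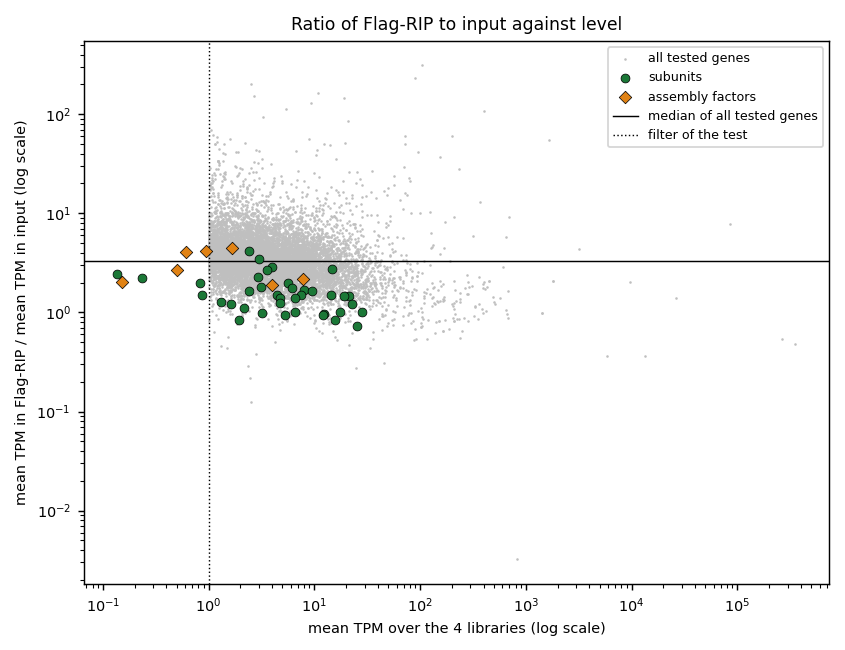
Ratio of mean TPM, Flag-RIP over input, against mean TPM over the 4 libraries, both on log scales. Grey points are the tested genes with values above 0 in both groups, green circles the 38 subunits and orange diamonds the 7 assembly factors. The horizontal line is the median ratio of 3.32 and the dotted line the filter of 1 TPM. Of the 38 subunits, 36 lie under the median line, as do 4 of the 7 assembly factors.

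The core subunits that pass electrons to ubiquinone included the lowest member. NDUFS8, which holds a pair of iron-sulfur clusters near the end of the chain, had 19.4 and 23.1 TPM in Flag-RIP, against 28.8 and 29.4 TPM in input. Both RIP libraries lay under both inputs, and its centred change was -1.76 (limma adjusted p = 0.0011, SE 0.19). NDUFS7, which carries the last cluster before ubiquinone, had 4.01 and 6.26 TPM in Flag-RIP, against 5.28 and 5.75 TPM in input. Here the RIP libraries lay on either side of the inputs, and the centred change was -1.43 (limma adjusted p = 0.0024, SE 0.20).

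NDUFS3 had 10.3 and 7.65 TPM in Flag-RIP, against 5.51 and 6.42 TPM in input, a centred change of -0.81 (limma adjusted p = 0.0052, SE 0.15). Its RIP libraries lay above the inputs without overlap, by less than the typical gene. The call of NDUFS3 was lost without input replicate 1 (-0.70) and with no filter on low values (-0.25, limma adjusted p = 0.37). Without that filter the reference for centring was the median of all genes above 0 TPM. Every centred change then moved up by the same amount.

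Core subunits of the NADH end had a median centred change of -0.67, against -1.12 for those of the ubiquinone end, a difference between 3 and 4 genes that was not tested. NDUFV1, which binds NADH and the flavin FMN, had 15.0 and 19.9 TPM in Flag-RIP, against 10.1 and 13.0 TPM in input, a centred change of -0.77 (limma adjusted p = 0.012, SE 0.18). NDUFV2, its iron-sulfur partner, had 11.2 and 12.3 TPM in Flag-RIP, against 6.20 and 8.16 TPM in input, a centred change of -0.67 (limma adjusted p = 0.0064, SE 0.13). NDUFS1, the largest subunit, which carries clusters further along the chain, had 5.68 and 6.25 TPM in Flag-RIP, against 1.73 and 2.39 TPM in input. It was not called after centring (-0.12, SE 0.11, limma adjusted p = 0.39), and all 3 genes had both RIP libraries above both inputs. The calls of NDUFV1 and NDUFV2 were lost without input replicate 1 (limma adjusted p = 0.11 and 0.081), and that of NDUFV1 also without input replicate 2 (0.066). Neither was called when the pseudocount was 5 (-0.23 and -0.20, limma adjusted p = 0.19 and 0.12) or when low values were not filtered (-0.21 and -0.11, limma adjusted p = 0.51 and 0.72). Without the filter the reference for centring was the moved one described for NDUFS3. With the 20 most abundant rows left out, in place of centring, NDUFV2 was not called at -0.56 (limma adjusted p = 0.060). The median of all tested genes was 0.45 there, so NDUFV2 still lay below the typical gene.

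Among accessory subunits of the B names, which sit in the membrane arm, 8 of 11 were lower after centring and 3 were not called. NDUFB7 was the lowest, with 13.2 and 15.9 TPM in Flag-RIP, against 17.7 and 16.7 TPM in input, a centred change of -1.55 (limma adjusted p = 0.0018, SE 0.20). NDUFB11 had 11.6 and 11.9 TPM in Flag-RIP, against 12.3 and 12.6 TPM in input, a centred change of -1.39 (limma adjusted p = 0.0013, SE 0.16). In both genes the RIP libraries lay under the inputs. NDUFB11 overlaps RBM10 in the genome, whose row had 18.7 and 19.1 TPM in Flag-RIP, against 7.67 and 10.1 TPM in input, and whether the counting used strand is not stated in the sources used here. NDUFB1, NDUFB2 and NDUFB9 had centred changes of -1.34 to -1.30, and NDUFB10, NDUFB4 and NDUFB3 had -1.05, -0.93 and -0.67.

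The B subunits that were not called were NDUFB5, NDUFB8 and NDUFB6. NDUFB5 had 4.34 and 3.44 TPM in Flag-RIP, against 0.72 and 1.14 TPM in input, a ratio of means of 4.18, the highest of the subunits. Its centred change was 0.03 (limma adjusted p = 0.87, SE 0.11). NDUFB8 had 21.7 and 20.9 TPM in Flag-RIP, against 7.81 and 7.92 TPM in input, with a centred change of 0.02 (limma adjusted p = 0.95, SE 0.16). Both genes were higher in the deposited values, with log2 changes of 1.34 and 1.33 (limma adjusted p = 1.7e-06 and 7.3e-05). NDUFB5 was called higher after centring with no filter on low values (0.58), and NDUFB8 with a pseudocount of 5 (0.37). Without the filter every centred change moved up by the same amount, that of NDUFB8 from 0.02 to 0.57. With the 20 most abundant rows left out, in place of centring, NDUFB5 was called higher at 0.76. The median of all tested genes was 0.45 there. On the spike-in scale, also in place of centring, NDUFB8 was lower at -1.21, with a median of all tested genes of -0.68. NDUFB6 had 5.95 and 4.40 TPM in Flag-RIP, against 2.14 and 1.71 TPM in input, with a centred change of -0.25 (limma adjusted p = 0.34). NDUFB5 and NDUFB8 encode single-pass membrane proteins of the same arm as NDUFB7 and NDUFB11.

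Of the accessory subunits of the A names, 9 of 10 tested were lower after centring. NDUFA3 and NDUFA12 had centred changes of -1.35 and -1.22, and NDUFA11, NDUFA9, NDUFA6, NDUFA7, NDUFA13, NDUFA1 and NDUFA2 lay between -1.12 and -0.61. The member not called was NDUFA10, a membrane-arm subunit with a nucleoside kinase fold. It had 5.18 and 4.20 TPM in Flag-RIP, against 1.09 and 1.65 TPM in input, a centred change of -0.05 (limma adjusted p = 0.73, SE 0.11). NDUFAB1, the mitochondrial acyl carrier protein, had -1.15. The accessory genes NDUFS4, NDUFS5, NDUFS6 and NDUFV3 were all lower, from -1.32 for NDUFS6 to -0.45 for NDUFV3. NDUFA4, set apart as above, had 1.64 and 1.91 TPM in Flag-RIP, against 2.18 and 2.07 TPM in input, a centred change of -1.49 (limma adjusted p = 0.0011, SE 0.16). Leaving it out changed the subunit median to -0.86.

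**Figure D2:**
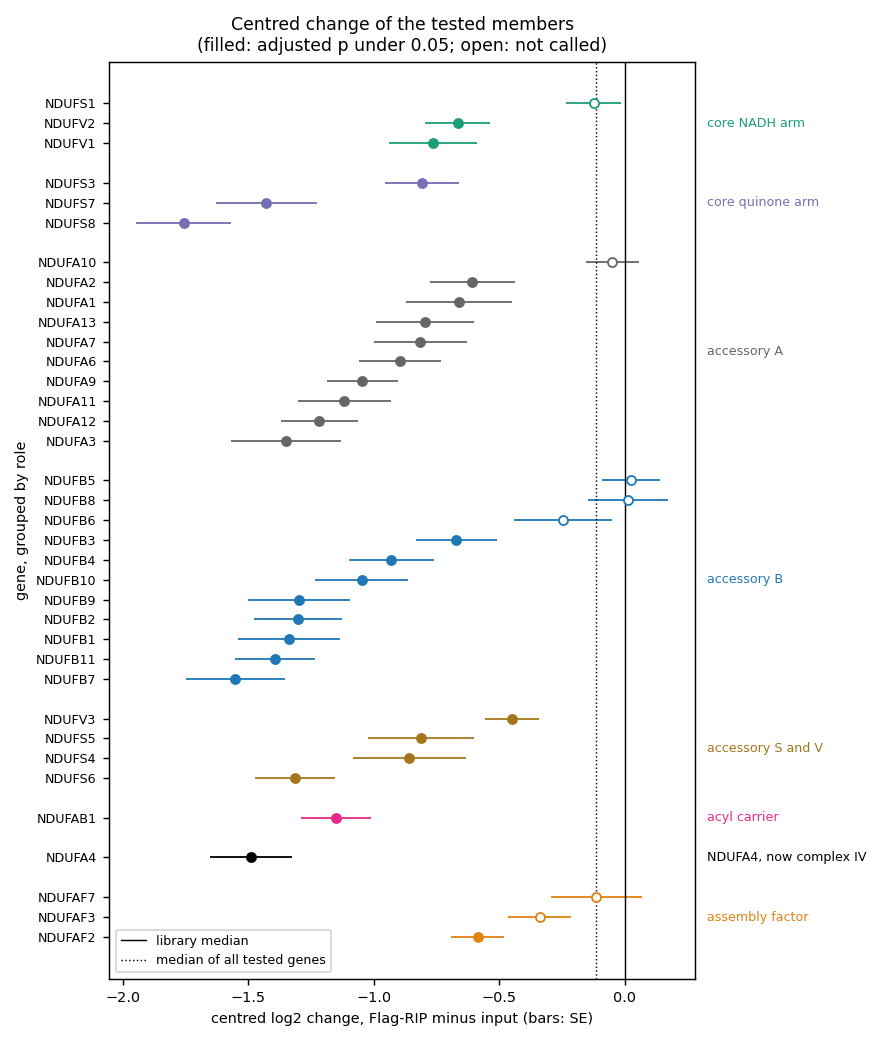
Centred log2 change, Flag-RIP minus input, of 36 of the 37 tested members in groups by role; bars are the standard error of the limma fit. Filled points passed the adjusted threshold and open points did not. The solid line is the common library median and the dotted line the median of all tested genes, -0.11. The 7 open points lie nearest to the lines, and NDUFS8 lies lowest at -1.76.

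The assembly factors were at low levels, and 3 of 7 passed the filter. NDUFAF2, a relative of the subunit NDUFA12 that acts late in assembly, had 5.16 and 5.30 TPM in Flag-RIP, against 2.44 and 3.09 TPM in input. Its centred change was -0.59 (limma adjusted p = 0.0052, SE 0.11), a call lost without input replicate 1 (-0.51) and with no filter on low values (-0.03, limma adjusted p = 0.91). The reference for centring had moved in the latter, as for NDUFS3. With the 20 most abundant rows left out, in place of centring, NDUFAF2 was not called at -0.35 (limma adjusted p = 0.26). The median of all tested genes was 0.45 there, so NDUFAF2 still lay below the typical gene. NDUFAF3, which works with NDUFAF4 on the ubiquinone end, had 11.9 and 9.57 TPM in Flag-RIP, against 4.31 and 5.60 TPM in input. It did not pass at -0.34 (limma adjusted p = 0.063, SE 0.12), and its change was -0.44 without Flag-RIP replicate 1. NDUFAF3 was called lower with a pseudocount of 0.1 (-0.62) and at a mean TPM of at least 5 (-0.40). In place of centring, it was called lower after quantile normalization (-0.40) and on the spike-in scale (-1.41). It was not called with a pseudocount of 5 (-0.01), with no filter (0.22) or with the 20 most abundant rows left out (-0.17). NDUFAF3 overlaps DALRD3, whose row had 6.29 and 3.86 TPM in Flag-RIP, against 2.32 and 3.40 TPM in input.

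NDUFAF7, a mitochondrial methyltransferase, had 2.15 and 3.25 TPM in Flag-RIP, against 0.40 and 0.80 TPM in input, the highest ratio of means of all members at 4.50. Its centred change was -0.11 (limma adjusted p = 0.64, SE 0.18), and it was called higher with no filter on low values (0.44). All centred changes moved up by the same amount without the filter. That call does not place NDUFAF7 above the typical tested gene, since both had -0.11 with the filter. With the 20 most abundant rows left out, in place of centring, the median of all tested genes was 0.45. NDUFAF7 was called higher there at 0.86. It passed the filter through its RIP values, as did NDUFB5, since both had mean inputs under 1 TPM. NDUFAF7 overlaps PRKD3, whose row had 6.25 and 4.78 TPM in Flag-RIP, against 1.13 and 1.89 TPM in input. All 3 tested factors had both RIP libraries above both inputs, as had 96.7% of all tested genes. All 3 were higher in the deposited values, by 0.73 to 1.20 on the log2 scale, as were 92.3% of all tested genes.

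The other factors are described by their TPM alone. NDUFAF1, a chaperone of the membrane arm, had 1.47 and 1.58 TPM in Flag-RIP, against 0.19 and 0.54 TPM in input, and NDUFAF5, an enzyme that modifies NDUFS7, had 1.06 and 0.90 TPM in Flag-RIP, against 0.21 and 0.27 TPM in input. Their ratios of means were 4.18 and 4.08. NDUFAF6 had 0.88 and 0.59 TPM in Flag-RIP, against 0.24 and 0.31 TPM in input, and NDUFAF4 0.15 and 0.26 TPM in Flag-RIP, against 0.12 and 0.08 TPM in input. In all 4 of these genes the RIP libraries lay above the inputs, as they did in 96.7% of the tested genes.

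Of the subunits, 4 did not pass the filter. NDUFC1 had 1.53 and 0.67 TPM in Flag-RIP, against 0.53 and 0.57 TPM in input, and NDUFC2 had 0.43 and 0.21 TPM in Flag-RIP, against 0.09 and 0.20 TPM in input. Reads of NDUFC2 may be divided with its read-through row NDUFC2-KCTD14, which had 4.16 and 4.08 TPM in Flag-RIP, against 2.08 and 2.14 TPM in input. NDUFA8 had 0.48 and 1.61 TPM in Flag-RIP, against 0.61 and 0.77 TPM in input, with the RIP libraries on either side of the inputs. NDUFA5 stayed between 0.16 and 0.23 TPM in Flag-RIP, against 0.07 and 0.09 TPM in input.

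**Figure D3:**
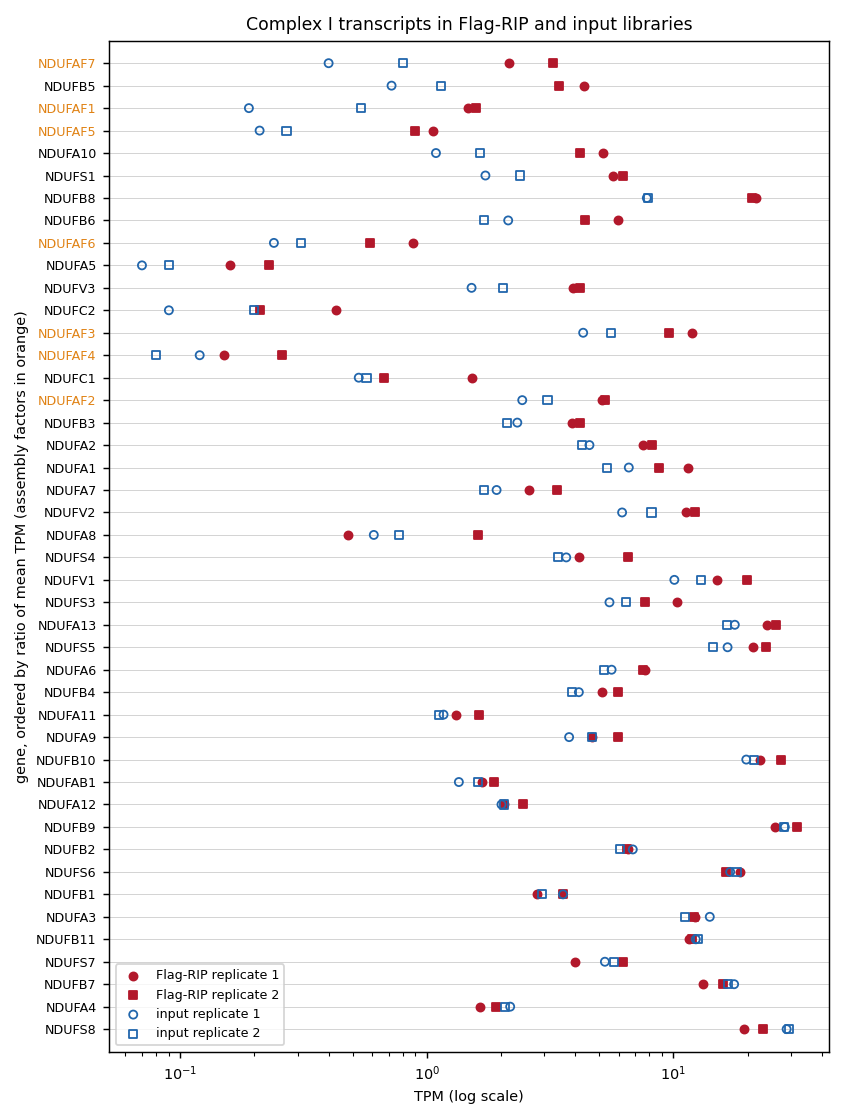
TPM on a log scale of 44 of the 45 genes in each library, ordered from the highest ratio of mean TPM at the top (NDUFAF7, 4.50) to the lowest at the bottom (NDUFS8, 0.730). Red filled symbols are Flag-RIP and blue open symbols input, circles replicate 1 and squares replicate 2; assembly factors are named in orange. Towards the bottom the red and blue symbols run together, and for NDUFS8, NDUFB7, NDUFB11 and NDUFA4 both red symbols lie left of both blue ones.

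The subunits and the assembly factors differed in level as well as in change. Summed over the 38 subunits, Flag-RIP libraries held 343 ± 19.3 TPM and inputs 270 ± 1.56 TPM (SD, n = 2 each), a ratio of 1.27. Summed over the 7 assembly factors, Flag-RIP libraries held 22.1 ± 0.926 TPM and inputs 9.30 ± 1.97 TPM (SD, n = 2 each), a ratio of 2.38. The median ratio of means was 1.48 over all 38 subunits and 2.67 over all 7 factors, and 2 of the 38 and 3 of the 7 lay above the 3.32 of the typical tested gene. The median of mean TPM was 5.05 for subunits and 0.945 for factors. Subunits lay below factors by 0.54 in median centred change, a value that was -0.89 between the replicate 1 libraries and -0.20 between the replicate 2 libraries. This difference was not tested, since genes are not replicates.

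Over all tested genes the difference between the groups varied with level, and its order over the levels depended on the scale. On the plain scale the median ratio was lower in bins of higher mean TPM, with 3.85 at 1 to 2 TPM, 3.43 at 2 to 5, 3.04 at 5 to 10, 2.80 at 10 to 20 and 2.35 at 20 to 50. The subunits had 1.20, 1.74, 1.57, 1.00 and 1.12 in the same bins, from 3, 12, 8, 7 and 4 genes, each under the value of all genes there. On the centred scale the order differed, with medians over all tested genes of -0.29, -0.05, 0.07, 0.07 and -0.12 in these bins and of -1.15, -0.74, -0.74, -1.32 and -1.17 over the subunits. Across genes, which are not independent replicates and share the libraries, the centred change went with mean TPM at a Spearman rho of 0.24 over all tested genes and -0.23 over the 37 members. In bins with a single assembly factor each, the centred changes were -0.11 for NDUFAF7 at 1 to 2 TPM, -0.59 for NDUFAF2 at 2 to 5 and -0.34 for NDUFAF3 at 5 to 10, against the subunit medians given above.

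Positions are those of RefSeq on GRCh38.p14, in which 44 of the 45 members were found (NDUFA4 was not matched). The members are spread over 21 chromosomes. NDUFS8 lies on chromosome 11 from 68030681 to 68036644, NDUFB7 on chromosome 19 from 14566078 to 14572066, NDUFB5 on chromosome 3 from 179604794 to 179627647, NDUFB8 on chromosome 10 from 100523729 to 100529923, NDUFA10 on chromosome 2 from 239892442 to 240025342 and NDUFAF7 on chromosome 2 from 37231658 to 37271365. The table gives 1 value per gene, so which part of a transcript was recovered is not known. For 9 members, an overlapping gene reached 1 TPM in some library.

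Members span less of the genome than most tested genes, with a median of 11.8 kb from start to end over 36 tested members, against 27.1 kb over 10262 tested genes. The span is that of the gene with its introns, and transcript lengths were not used here. Across genes, which are not independent replicates and share the libraries and their depth, the centred change went with the span at a Spearman rho of 0.36 over the members and 0.23 over all tested genes. Tested genes with spans of 5 to 10 kb had a median centred change of -0.23, against -0.91 for the 10 members in that range, which include NDUFS8 and NDUFB8. For spans of 20 to 50 kb the medians were -0.09 over all tested genes and -0.25 over 7 members. These included NDUFB5, NDUFS1 and NDUFAF7. Members had -0.85 under 5 kb (6 genes), -0.97 at 10 to 20 kb (10 genes) and -0.59 at 50 kb or more (3 genes). All tested genes had -0.35, -0.18 and -0.01 there, so the members did not rise steadily with span. The part of span in the low recovery was not tested.

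The QKI core motif, ACTAAC or ACTAAT as DNA, was looked for in RefSeq windows around the annotated gene starts. In the first 50 transcribed bases, on the sense strand, it was found in 0 of 38 members with a window and in 0.978% of 27305 genes. These windows hold no 3′ untranslated region, where QKI is known to bind many mRNAs, so the absence of these letters says nothing of binding.

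Other genes for complex I fall outside the naming rule. Of 13 such nuclear genes found, 9 were tested, of which 5 were lower and 1 higher after centring, against 24.4% and 16.4% of all tested genes. The median was -0.42, against -0.11 over all tested genes. TMEM261, now DMAC1, a factor for the distal membrane arm, had 1.25 and 1.59 TPM in Flag-RIP, against 1.25 and 1.41 TPM in input, and had the lowest centred change of the list, -1.27 (limma adjusted p = 0.0020, SE 0.17). ECSIT, of the membrane-arm assembly complex, had -0.91, and C17orf89, now named NDUFAF8, had -0.63. COA1, an inner-membrane assembly factor, had 9.23 and 10.6 TPM in Flag-RIP, against 1.67 and 2.53 TPM in input, and was the one called higher, at 0.51 (limma adjusted p = 0.014, SE 0.12). ACAD9, TIMMDC1 and FOXRED1 were within 0.10 of the library median and were not called. The subunits encoded in mitochondrial DNA were not analysed here.

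**Figure D4:**
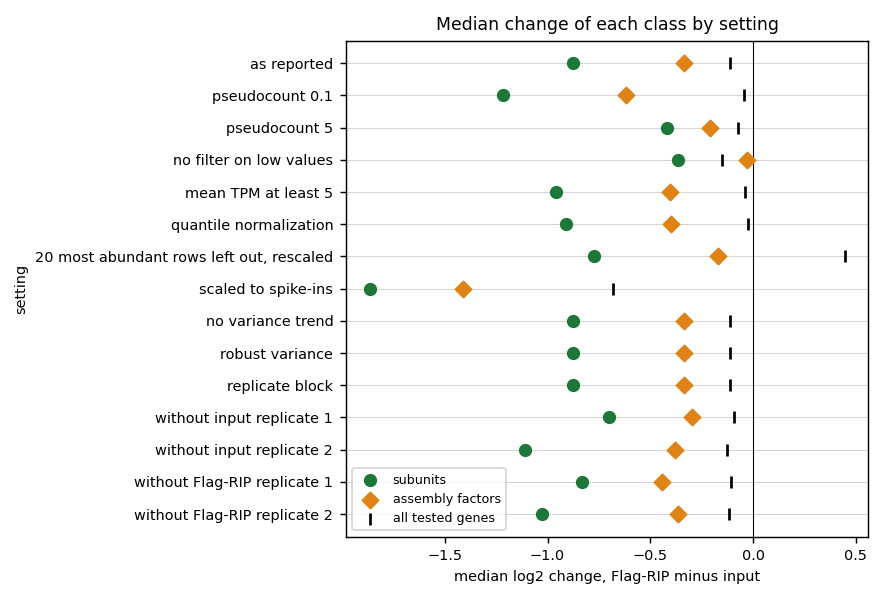
Median log2 change, Flag-RIP minus input, of subunits (green circles), assembly factors (orange diamonds) and all tested genes (black ticks) under each setting. The subunit median lay below the median of all tested genes in every setting drawn, by 0.21 with no filter on low values up to 1.22 with the 20 most abundant rows left out. The assembly factor median lay between the other 2 in every setting except the one with no filter, where it lay above both. With no filter, all genes above 0 TPM count as tested.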

How the data were processed

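The authors deposited 1 table of TPM values, with 1 column for each of 2 Flag-RIP and 2 input libraries. It was made with STAR and RSEM (version 1.2.31) on GRCh38, per the submitters' processing notes. The gene annotation, any filter and the use of strand are not stated in the sources used here. RSEM divides reads among similar or overlapping genes, so such values are uncertain. No member shared all its values with another row.

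From these values, log2(TPM + 1) was tested with limma (3.58.1, R 4.3.3): lmFit, then eBayes with a trend of variance on mean, two-sided, with Benjamini-Hochberg adjustment over 10415 genes of mean TPM 1 or more. The 92 spike-in rows were left out, and 2 residual degrees of freedom remained. Centring shifted libraries to equal medians of the tested genes. The scale understates the change of low genes. The fit was tested on simulated data. Alternatives were pseudocounts, filters, scalings, variance models, a replicate block and leaving out each library. The alternative scalings took the place of centring. Values per library were given for the tested assembly factors, the nuclear core subunits and the 5 lowest and 5 highest members. NDUFB6 and the genes below the filter were added to account for every member. 1 member, kept in the counts and medians, is not reported here by name. The members and lists were chosen with earlier results of these data known.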

Additional observations from a re-analysis of the deposited data

How the results depend on the processing

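Some subunits were called lower in every setting tried. Quantile normalization, leaving out the 20 most abundant rows and scaling to the spike-ins took the place of centring. Their fits are the same as those given below for the deposited values. With no filter on low values 18 of 38 subunits were lower after centring, 14 of the 29 and 4 not tested otherwise. Over all genes 10238 were lower and 5590 higher there, of at most 26830. The median used for centring was then that of all genes above 0 TPM, so every centred change moved up by the same amount. The 4 subunits not tested otherwise had mean inputs of 0.08 to 0.69 TPM, where the scale understates change, so their calls say little of recovery. At a mean TPM of at least 5, 18 of 19 tested subunits were lower, where 1171 genes in all were lower and 1025 higher. With 1 library left out their number was 13 to 30, and that of lower assembly factors 0 to 2. Subunits called higher after centring were 1 with a pseudocount of 5, 2 with no filter and 1 with the 20 most abundant rows left out. Assembly factors called lower were 2 with a pseudocount of 0.1, with no filter, after quantile normalization and when scaled to the spike-ins. They were 0 with the 20 most abundant rows left out. With no filter the 2 were NDUFAF4 and NDUFAF6, while NDUFAF2 had -0.03. NDUFAF4 and NDUFAF6 had mean inputs of 0.1 and 0.275 TPM, so the same limit of the scale holds for them. 1 factor, NDUFAF7, was higher with no filter (0.44) and with the 20 most abundant rows left out (0.86). NDUFA10, not called above, was higher (0.51) with no filter, where all centred changes had moved up. NDUFB8, also not called above, was lower (-1.21) when scaled to the spike-ins.

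For the deposited values, higher subunits numbered 3 at a mean TPM of at least 5, 0 after quantile normalization, 1 with the 20 most abundant rows left out, 0 when scaled to the spike-ins, and 1 to 15 with 1 library left out. Lower subunits numbered 28, 22 and 33 under these 3 scalings. Over all genes 2136, 730 and 6339 were lower there and 1842, 3748 and 325 higher, of 10415, 10402 and 10415 tested. Higher assembly factors numbered 6 with no filter (of 7), 1 at a mean TPM of at least 5 (of 1), 0 after quantile normalization, 1 with the 20 most abundant rows left out, 0 when scaled to the spike-ins, and 1 to 3 with 1 library left out; lower ones numbered 2 after quantile normalization and 2 when scaled to the spike-ins. The cause of these moves was not tested. Leaving out the 20 most abundant rows put the median of all tested genes at 0.45, and scaling to the spike-ins, whose added amounts are not stated, at -0.68. Where a group is left with 1 library, it is assumed to vary like the other group.

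With replicate number as a block (replicate block), 29 subunits were lower after centring, as without it. In the deposited values 7 subunits and 2 assembly factors were then higher, against 11 and 3. Deviations of same-numbered libraries from their group means correlated at -0.07, which is no sign of pairing. The depth behind a TPM value is unknown.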
